A study of Mus musculus with 4 samples.

Results

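Npas3 is a protein-coding gene of mouse chromosome 12 (NCBI gene ID 27386; mm10, 53248026 to 54072173) and held more DHX9 peaks than any other protein-coding gene in the series. Its peaks were taken as all peaks on chromosome 12 whose midpoint lay in that span. There were 661 of them among 43106 peaks in all. This was 1.53% of the list, 37.3% of the 1774 peaks on chromosome 12 and 51.5% of the 1283 peaks on that chromosome's plus strand. The gene with the next most peaks, Maml2, held 374. The gene was chosen by its number of peaks in this same list, so that number, and the density that follows from it, are descriptions and were not tested.

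The peaks came from FLASH, a crosslinking and immunoprecipitation method in which ultraviolet light fixes a protein to RNA and the recovered RNA is read in a way that keeps its strand. The cells were neural progenitor cells grown in culture from WT26, a feeder-independent male mouse embryonic stem cell line of the strain background C57BL/6x129sV, and kept in N2B27 medium with EGF and FGF2. There were 2 libraries (A and B) with a rabbit antibody to DHX9 and 2 (A and B) with rabbit IgG as background, all from this 1 cell line without further treatment. The deposited data were 1 list of peaks, called on the 4 libraries jointly. It gives neither read counts nor single libraries, so the depth is unknown and nothing below carries an error between replicates. A stretch without a peak is a stretch without a called peak, and RNA levels were not measured here. Of the genes that mark neural progenitors, 4 of 10 carried a peak, namely Slc1a3 with 122, Ptprz1 with 64, Fabp7 with 4 and Vim with 1, while Sox1, Sox2, Nes, Pax6, Msi1 and Hes5 had 0. A peak lay in 1 of 6 neuronal genes, Map2 with 46, and in 3 of 6 glial genes, Olig1 with 4, Olig2 with 2 and Pdgfra with 1. Of the pluripotency genes 0 of 5 carried a peak, and of all 21900 protein-coding genes 18.9% did. Since peaks are not expression, these counts do not settle the labelled cell type.

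Npas3 encodes a transcription factor of the basic helix-loop-helix PAS family, whose members bind DNA as pairs, with ARNT or ARNT2 as the usual partner. It is known for roles in the developing nervous system. DHX9 is an RNA helicase, largely nuclear, that binds and unwinds structured and double-stranded RNA. A long gene such as Npas3 is made into a precursor RNA that consists mostly of introns. Exons were not used here, so peaks in introns and exons were not told apart.

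Both the start of Npas3 and the start of the noncoding gene nested behind it lay under peaks, and their sequences are shown because peaks covered both starts. The windows are from RefSeq (GRCm38.p6, plus strand), run from 250 bases before to 50 bases after the start that this table gives, and carry in capitals the bases under a DHX9 peak. The Npas3 window is chr12:53248182-53248481 and the Gm51419 window is chr12:53252889-53253188.
Npas3: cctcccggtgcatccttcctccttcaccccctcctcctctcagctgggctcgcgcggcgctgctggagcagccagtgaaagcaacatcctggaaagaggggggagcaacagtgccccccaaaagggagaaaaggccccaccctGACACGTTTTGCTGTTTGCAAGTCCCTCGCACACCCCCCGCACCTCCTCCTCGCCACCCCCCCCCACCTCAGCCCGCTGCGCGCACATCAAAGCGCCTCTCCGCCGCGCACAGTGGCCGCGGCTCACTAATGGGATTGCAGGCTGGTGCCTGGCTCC
Gm51419: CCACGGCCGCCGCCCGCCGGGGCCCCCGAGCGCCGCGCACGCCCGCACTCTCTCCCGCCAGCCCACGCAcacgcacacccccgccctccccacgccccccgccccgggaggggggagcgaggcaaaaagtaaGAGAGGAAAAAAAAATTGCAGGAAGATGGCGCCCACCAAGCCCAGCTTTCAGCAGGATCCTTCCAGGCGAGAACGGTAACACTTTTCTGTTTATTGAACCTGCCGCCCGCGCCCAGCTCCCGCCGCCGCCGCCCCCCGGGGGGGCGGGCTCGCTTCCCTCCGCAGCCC
The first peak of Npas3 ran from 53248325 to 53248591, and so covered 157 of the 300 bases of the window and the start at 53248432 itself. The annotated span of Npas3 begins 406 bases before that start, and the peak began 299 bases inside the span. The Gm51419 window was touched by 2 peaks, from 53252705 to 53252957 and from 53253021 to 53253385, which together covered 237 of its bases. The second of these covered the Gm51419 start at 53253139, which lies 5.11 kb inside Npas3. A peak on the gene's strand that touched such a window was rare, found in 75 of 17492 protein-coding genes with a window (0.429%). It was found in 74 (2.25%) of the 3293 of them with at least 1 peak in their span, and in 4 (13.3%) of the 30 with at least 100 peaks, Npas3 among them. Both windows were rich in G and C, at 66.3% for Npas3 and 71.3% for Gm51419, where the windows of protein-coding genes had a median of 56.3% (25th to 75th percentile 48.3 to 64.7%, 21263 windows). Within the Npas3 window the share was 68.2% under the peak and 64.3% outside it. Within the Gm51419 window it was 70.5% under the peaks and 74.6% outside them. The bases under peaks were thus slightly richer in G and C than the other bases in the first window and slightly poorer in the second, with 1 window each.

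The plus strand carried all 661 peaks and the minus strand 0 (100%, exact 95% binomial interval 99.4 to 100%, which treats peaks as independent and covers counting error only). The RefSeq windows place Npas3 on the plus strand, so every peak had the gene's own orientation. This was also so for the majority of peaks in each of the 30 genes with at least 100 peaks and a window. The Npas3 peaks stood apart from the other peaks of the chromosome. In the 500 kb before the span there were 0 peaks on either strand, and in the 500 kb after it also 0. Akap6, which encodes an anchoring protein for protein kinase A and lies on the same strand, ends 92.5 kb before Npas3 and had 0 peaks over 457.0 kb. Egln3, which encodes a prolyl hydroxylase of hypoxia-inducible factor and lies on the minus strand, also had 0. Its nearer edge, which is the end of that gene, lay 106.8 kb after Npas3. The nearest peaks outside the span were 701.0 kb before it, in Arhgap5, and 599.1 kb after it, in Eapp, 2 genes named after their values were seen. No peak just outside the limits was therefore left out, while the first peak inside began 299 bases from the lower limit.

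Along the gene, peaks were crowded towards the start and thinned out in repeated steps. The first 50% of the span held 536 peaks (81.1%, exact 95% binomial interval 77.9 to 84.0%) and the rest 125. The middle peak in order lay 147.0 kb into the gene, at 17.8% of its length, and 90% of the peaks lay within 467.6 kb. In 10 equal parts of 82.4 kb, the counts in order were 203, 153, 20, 113, 47, 79, 8, 33, 5 and 0 peaks. The densest part thus had 2.46 peaks per kb, and part 3, with 0.243 per kb, was followed by a rise to 1.37 per kb. In the 83 windows of 10 kb from the start, 29 had no peak and 12 had 20 or more. These 12 windows held 305 peaks (46.1%).

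**Figure D1:**
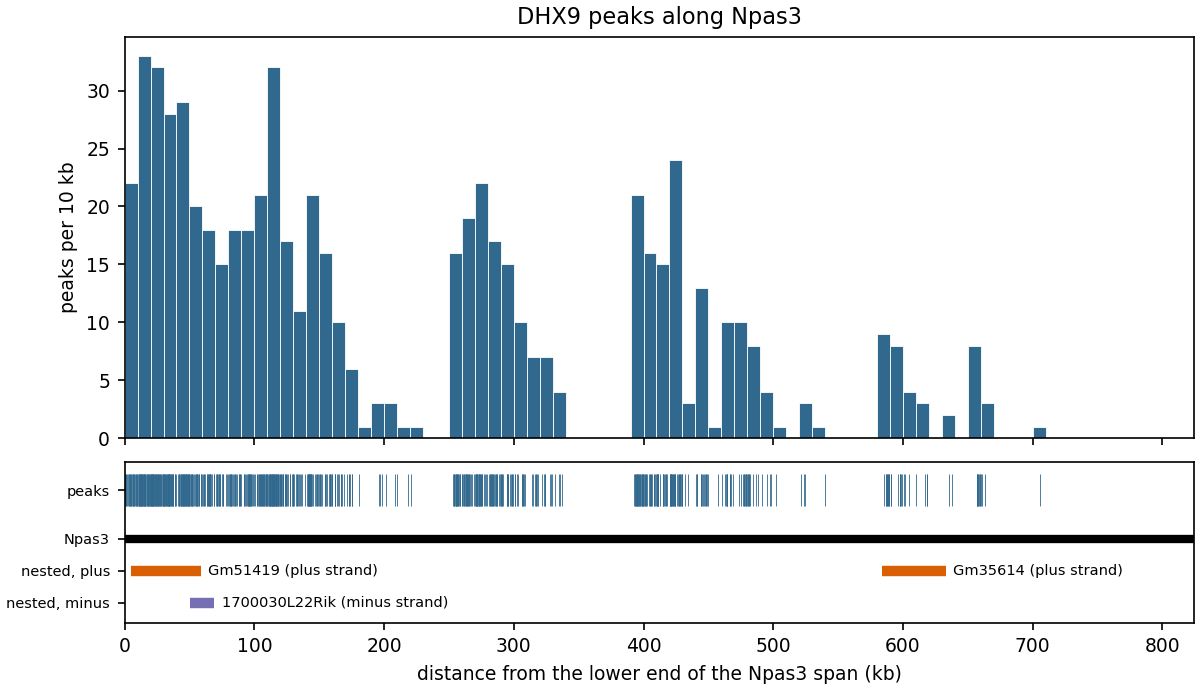
DHX9 peaks along Npas3. The upper panel gives the number of peaks per 10 kb against the distance from the lower end of the span in kb, and the lower panel marks each of the 661 peaks, the Npas3 span and the 3 nested noncoding genes by strand; counts reach 33 in the window from 10 to 20 kb, fall to 0, and rise again at about 250, 390 and 580 kb.

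Peak-free stretches of at least 10 kb, a limit chosen after the positions were seen, divided the peaks into 10 blocks. There were 9 such stretches between peaks, 261.3 kb in all. The longest, 55.8 kb, ran from 53584908 to 53640743, followed by 46.0 kb from 53787649 to 53833670 and 42.4 kb from 53911099 to 53953467. After the last peak, which ended at 53953775, the remaining 118.4 kb of the gene (14.4% of the span) had no peak. The gene's last stretch was thus more than 2 times as long as any peak-free stretch between peaks.

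Block 1 ran from 0.299 to 181.2 kb after the start of the span and held 368 peaks, 55.7% of the total, at 2.03 peaks per kb. Block 3, from 253.0 to 336.9 kb, held 117 peaks at 1.40 per kb. Block 4, from 392.7 to 502.2 kb, held 126 at 1.15 per kb. These 3 blocks together held 611 peaks (92.4%). Block 7, from 585.6 to 618.8 kb, held 24 peaks at 0.723 per kb, and block 9, from 656.8 to 663.1 kb, held 11 over 6.22 kb. The other 5 blocks had 8, 3, 1, 2 and 1 peaks. The density of the 4 longest blocks fell in order along the gene, from 2.03 to 0.723 per kb. Shorter blocks departed from this order. Block 2, 24.7 kb long and between blocks 1 and 3, had 0.324 per kb, and block 9 had 1.77.

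Within blocks, peaks were again more frequent near the lower end. The first 50% of the block held 215 of 368 peaks in block 1 (58.4%), 80 of 117 in block 3 (68.4%), 87 of 126 in block 4 (69.0%), 19 of 24 in block 7 (79.2%) and 8 of 11 in block 9 (72.7%). All 5 blocks with at least 10 peaks therefore had more in the first part. Of 816 such blocks in other protein-coding genes, 53.7% did, and 63 were tied. In the other genes the median share was 53.3% (25th to 75th percentile 40.9 to 66.7%). The first 50% of block 1 contains all 151 peaks of Gm51419, and the share of block 1 without them was not calculated. The decline was not even. In 10 kb steps from its first base, block 3 had 23, 22, 17, 17, 14, 6, 8 and 7 peaks. Block 4 began with 27 peaks, then had 17 in each of the next 3 steps and between 2 and 15 after that. Block 1 reached 34 in its second step, fell to 15 in its eighth, rose to 32 in its twelfth, from 110 to 120 kb, and ended with 6 in its last full step.

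**Figure D2:**
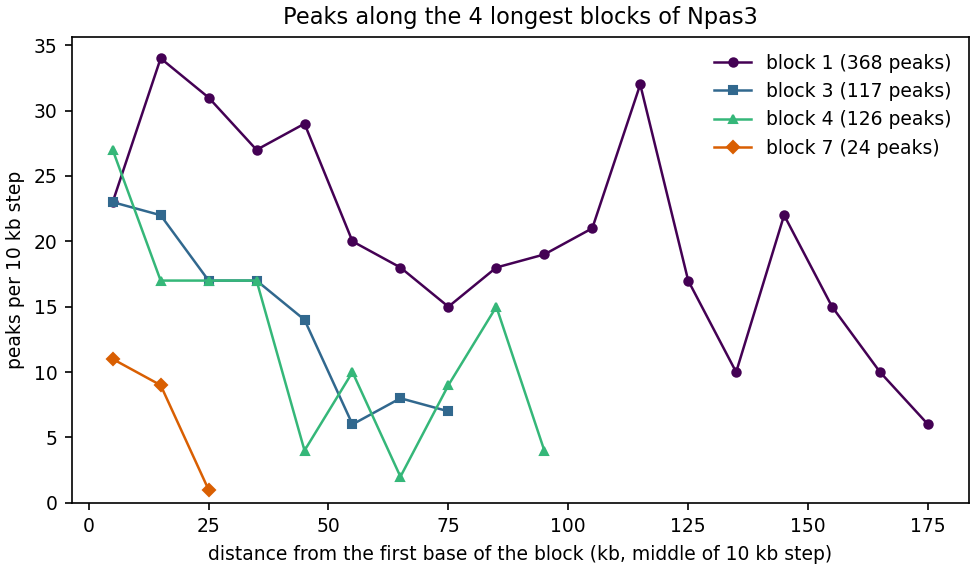
Peaks along the 4 longest blocks of Npas3. Each point is the number of peaks in a full 10 kb step, plotted at the middle of the step against the distance in kb from the first base of the block; blocks 3 and 4 start at 23 and 27 peaks and stay below that, while block 1 has a second rise to 32 peaks between 110 and 120 kb.

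Neighbouring peaks lay close together. The median distance between midpoints was 407.5 bases over 660 distances (95% order-statistic interval 372.5 to 437 bases), and the mean was 1068 bases. Even spacing of the peaks over the whole span, its peak-free end included, would give 1247, a value to be read beside the mean. The middle of the distribution ran from 253.5 bases (25th percentile) to 699.5 bases (75th percentile), the smallest distance was 108.5 bases and the largest 55956.5. Of the distances, 401 (60.8%) were under 500 bases and 9 (1.36%) over 10 kb. Among neighbours, 131 pairs lay within 50 bases of each other and 6 overlapped, by up to 76 bases, as did 312 same-strand pairs in the whole list. Merging peaks of a strand within 50 bases of each other would leave 530 peaks in the gene.

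Runs were defined as at least 3 peaks with neighbouring midpoints at most 1 kb apart. There were 51 runs with 591 peaks (89.4%), while 42 peaks stood alone and 14 pairs were formed. The largest run held 97 peaks from 53256824 to 53287877, a stretch of 31.1 kb in which peaks covered 61.2% of the bases at 3.12 peaks per kb. This run lay wholly inside Gm51419. The run with the second most peaks, 64 over 24.3 kb from 53349762 to 53374025, lay in no nested gene and was covered to 50.6%. A run of 52 peaks from 53288768 to 53309144 followed, covered to 44.9%. At the start of block 4, 27 peaks stood over 9.75 kb from 53640744 to 53650496, covered to 51.8%. Over the whole span, peaks covered 118.4 kb (14.4%), against 37.5% of block 1, 23.9% of block 3 and 20.7% of block 4.

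Single peaks of Npas3 had a median length of 160 bases (95% order-statistic interval 154 to 167, n = 661), beside 153 bases over all 43106 peaks. Their 25th and 75th percentiles were 125 and 213 bases, and those of all peaks 122 and 201. The shortest was 50 bases and the longest 550. A length of at least 300 bases was reached by 55 Npas3 peaks (8.32%) and by 7.22% of all peaks. Peaks in runs had a median of 161 bases and those outside runs 149.5. The median was 167 in block 1, 158 in block 3, 162 in block 4 and 149 in block 7. Between these 4 blocks the median length ranged from 149 to 167 bases while the density ranged from 0.723 to 2.03 peaks per kb.

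Of the 661 peaks, 465 (70.3%, exact 95% binomial interval 66.7 to 73.8%) lay in no other annotated gene and 196 in at least 1 of 3 nested long noncoding genes. Gm51419 (53253139 to 53306597, plus strand, a predicted gene of 53.5 kb) held 151 peaks, 22.8% of the Npas3 peaks (19.7 to 26.2%) on 6.49% of the span. With the same strand as Npas3, its peaks cannot be told apart from those of the Npas3 precursor. 1700030L22Rik (53298724 to 53317139) lies on the minus strand by its window, and the 37 peaks in its span were all on the plus strand, opposite to it. It shared 16 of them with Gm51419. Gm35614 (53831795 to 53880907, plus strand) held 24 peaks, which were all the peaks of block 7. The first of these began 1.88 kb after the Gm35614 start, and its start window was touched by no peak.

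Density inside Gm51419 was 2.82 peaks per kb, against 0.662 per kb in the rest of Npas3. At its edges the change was smaller. The 5.11 kb of Npas3 before Gm51419 had 1.96 peaks per kb and the first 10 kb of Gm51419 had 3.00. The last 10 kb of Gm51419 had 2.30 per kb and the 10 kb after it had 1.90. At Gm35614, the 10 kb before its start had 0 peaks and the first 10 kb had 11, while the last 10 kb before its end had 0. Across the upper edge of 1700030L22Rik, which is its start, the values were 1.90 per kb inside and 1.40 beyond it. Peaks in Gm51419 had a median length of 170 bases, against 159 in the rest of Npas3, and 20 of the 151 (13.2%) were 300 bases or longer. That length was reached by 8.32% of all Npas3 peaks, those in Gm51419 included, and by 7.22% of the whole list. The Gm51419 peaks had a median spacing of 304 bases and covered 54.3% of that gene's span. The strand-matched signal of block 1 thus ran from before Gm51419 to 122.7 kb beyond its end.

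Among genes of like length, Npas3 was set beside the 226 other protein-coding genes with a span of at least 500 kb. Of all 227, 105 (46.3%) had a peak, and 42 others had at least 10. None of these 42 had as many peaks as Npas3 (range 10 to 339), as the choice of the gene fixes. In the share of peaks in the first 50% of the gene it lay among them. This share was 81.1% in Npas3 and had a median of 85.7% in the 42 (25th to 75th percentile 21.2 to 94.7%), with 23 above Npas3 and 19 below. Over all 1055 protein-coding genes with at least 10 peaks, 65.0% had more than 50% of them there. The peak-free end of the gene, 14.4% of the span, compared with a median of 15.3%. The distance from the start of the span to the first peak was 0.299 kb, with 2 of the 42 shorter and a median of 12.1 kb. This distance also tends to be shorter where peaks are more numerous. The longest peak-free stretch between peaks was 6.78% of the span, with 4 of the 42 shorter and a median of 23.2%, a measure that shrinks as peaks become more numerous. Median spacing was 407.5 bases, with 2 of the 42 lower and a median of 929.5. The share of peaks in runs, 89.4%, was above that of all 42, whose median was 50%. Both measures also depend on the number of peaks. The median peak length of 160 bases compared with 147.75 in the middle of the 42. None of these differences was tested, since there is 1 list and Npas3 is 1 gene.

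The 3 genes with the next most peaks are given beside Npas3 as values. Maml2, which encodes a Notch coactivator, had 67.4% of 374 peaks in the first 50% of its span, with 0 in parts 2 and 3 of 10 equal parts and 112 in part 4. Nfia, a nuclear factor I gene, had 56.0% of 339 peaks there, and its first peak lay 66.2 kb after the start. Adgrb3, an adhesion receptor gene, had 74.9% of 307 peaks there. Median spacing was 341 bases in Maml2, 364 in Nfia and 524.5 in Adgrb3, around the 407.5 of Npas3. The longest peak-free stretch was 97.1 kb in Maml2, 127.4 kb in Nfia and 123.6 kb in Adgrb3, against 55.8 kb in Npas3.

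**Figure D3:**
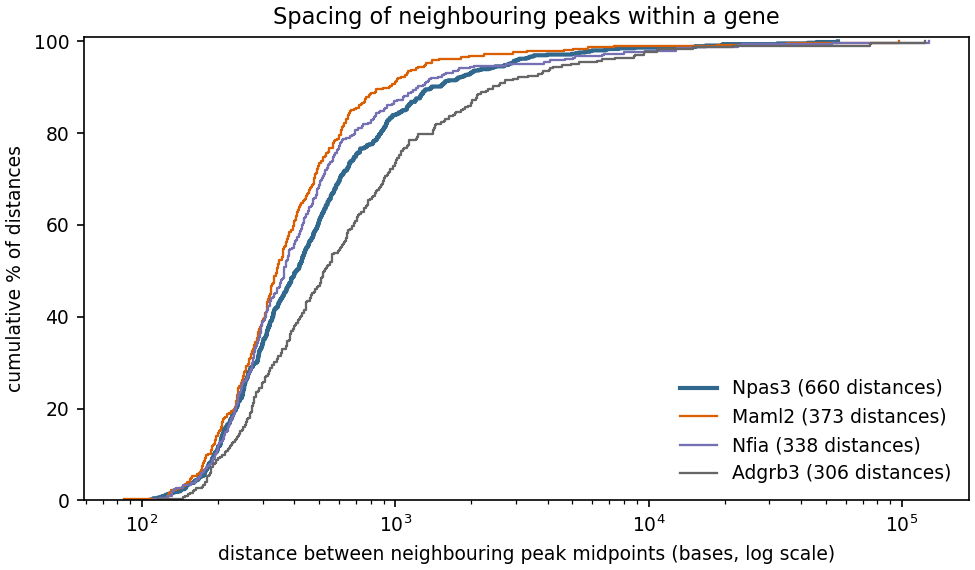
Spacing of neighbouring peaks in Npas3 and the 3 protein-coding genes with the next most peaks. The horizontal axis is the distance between midpoints in bases on a log scale and the vertical axis the cumulative percentage of distances; the Npas3 line lies between those of Nfia and Adgrb3 at its median of 407.5 bases.

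The profile along the gene was compared among genes with at least 100 peaks by summing, over 10 equal parts read along the strand of the peaks, the absolute differences in the share of peaks. Out of 46 such genes, Pcdh9, which encodes a protocadherin, had the profile nearest to Npas3, with a summed difference of 41.6 percentage points. Msi2, an RNA-binding protein gene, followed with 44.6, and Adgrb3 with 53.0. Pcdh9 had 41.1 and 22.5% of its 253 peaks in parts 1 and 2, where Npas3 had 30.7 and 23.1%. Msi2 had 33.0 and 20.7% of its 179 peaks there, 1.68% in part 3 and 11.7% in part 4, where Npas3 had 3.03 and 17.1%. Msi2 thus also dipped in part 3 and rose after it, whereas Pcdh9 declined more evenly. Both measures describe 1 list, and no test was made.

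**Figure D4:**
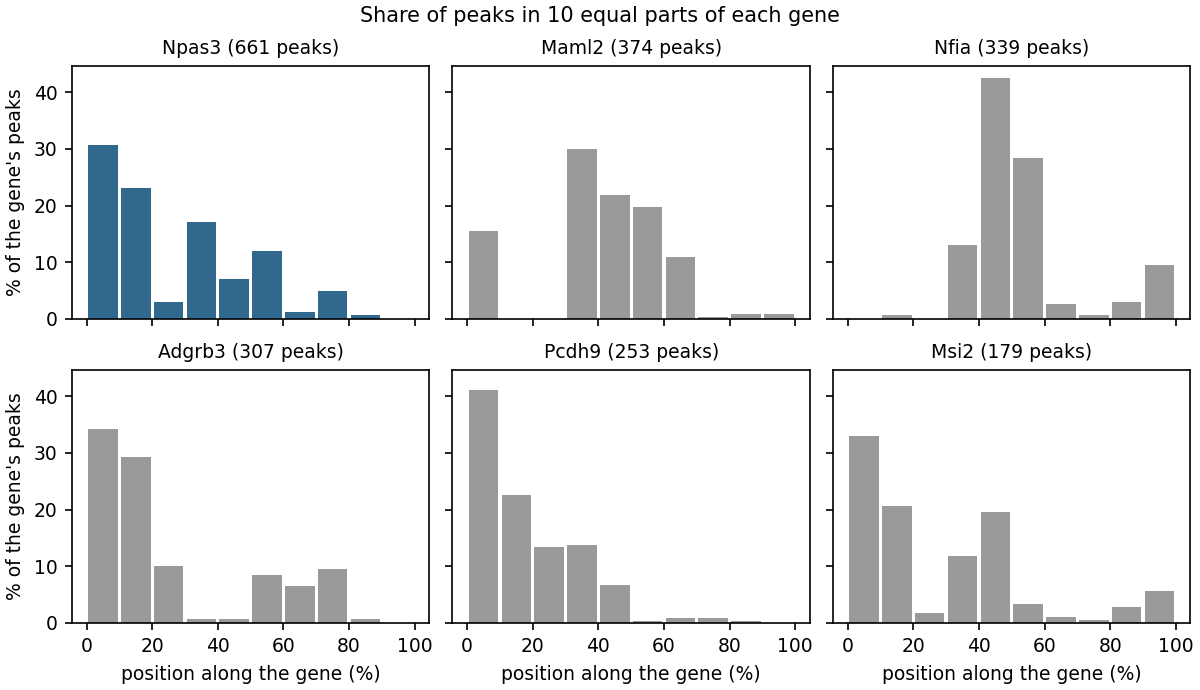
Share of peaks in 10 equal parts of Npas3, of the 3 protein-coding genes with the next most peaks, and of Pcdh9 and Msi2, whose profiles were near to it. The horizontal axis is the position along the gene in % of its span, read along the strand of the peaks, and the bars give the % of the gene's peaks; Npas3 holds 30.7% in part 1 and 0 in part 10.

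The relatives of Npas3 held few peaks each. Of 18 other genes of the basic helix-loop-helix PAS family and the related nuclear receptor coactivators, 7 carried a peak (38.9%), beside 18.9% of all protein-coding genes, a background not matched for length. Their median was 3 peaks, against 4 over all protein-coding genes with a peak. The partner genes Arnt and Arnt2 had 5 and 1. Ncoa2, a coactivator gene, had 15 over 235.1 kb, Ncoa1 and Hif3a had 3 each, and the circadian gene Clock and the hypoxia response gene Hif1a had 2 each. Npas1, Npas2, Npas4, Sim1, Sim2, Ahr, Ahrr, Arntl, Arntl2, Epas1 and Ncoa3 had 0. Per kb, the highest value among the other 18 was 0.0954 in Hif3a, where Npas3 had 0.802. The members' transcript levels were not measured, so peak numbers cannot be set against them.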

How the data were processed

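The authors deposited 1 list of peaks called by PEAKachu, as the file itself names it, from 2 DHX9 antibody and 2 rabbit IgG libraries. Each line holds a chromosome, a 1-based start and end, and a strand, with empty columns for score and frame. The submitters' processing notes list the aligner Bowtie2 (2.2.6) and name hg19 and mm10 as builds. Peaks were read as mm10. Settings, threshold and the handling of multiply mapping reads are not given in the sources used here.

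Gene spans, starts and strands came from RefSeq tables (GRCm38.p6). A peak belonged to each gene whose span held its midpoint. Positions were read from the lower coordinate, or along the strand with most peaks in other genes. Binomial and order-statistic intervals (95%, scipy 1.17.1) treat peaks as independent. Code was tested on simulated peaks. Peaks were placed in blocks, runs and equal parts as defined in the report. Named genes were Npas3, its nested genes, the 3 protein-coding genes with the next most peaks, family members with a peak, the nearest neighbour on each side and the 3 genes with the most similar profile. Outside this rule, family members without a peak and the progenitor markers were named to complete their lists. The neuronal and glial markers with a peak, Arhgap5 and Eapp were named after their values were seen. Members and lists were chosen with earlier results of these data known. No test between groups was possible.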

Additional observations from a re-analysis of the deposited data

How the results depend on the processing

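With 1 list and no value per library, no replicate could be left out and no result carries a test. No paired analysis was possible because the list gives no value per library. Alternatives for blocks, the share in runs, the family, the neighbourhood and Maml2, and the setting without any nested gene, were chosen after seeing the data. A value counts as moved when it left its 95% interval or, for counts and bases, changed by more than 1.5 times; 20 of 60 did. Keeping only peaks that reached the whole list's median length left, by construction, 363 peaks in Npas3 and 241 in Maml2, with a median distance of 623.25 bases, a median length of 205 bases and 70.5% of peaks in runs. Merging peaks within 50 bases gave 530 peaks, a median distance of 571.5 bases, a median length of 171 bases, 85.8% in runs, 18.3% in Gm51419 and 74.7% in no other gene. Without the peaks in Gm51419, 75.5% lay in the first 50% of the gene, the median distance was 468 bases and 86.3% lay in runs. A run distance of 2 kb gave 23 runs with 95.6% of peaks, 500 bases gave 70 runs with 64.1%, and at least 5 peaks gave 33 runs with 80.3%. Peak-free limits of 5 kb and 20 kb gave 19 and 5 blocks. The share in the first 50% of the gene ranged from 75.5 to 81.3%. The share on the plus strand was 100% in all 3 alternatives run for it, and the 500 kb on either side held 0 peaks in each. Both outcomes were fixed in advance, because none of these alternatives could add a minus-strand peak or a peak beside the span. They are counted among the 60 values but say nothing about how firm these results are.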
